A study of Mus musculus with 8 samples.

Results

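The guanylate-binding proteins (GBPs) and the immunity-related GTPases (IRGs) were followed in mouse CD8+ T cells cultured with or without an agonist of the liver X receptors (LXR). The 10 genes described here are 6 GBP genes (Gbp2, Gbp3, Gbp4, Gbp5, Gbp7 and Gbp9) and 4 IRG genes (Iigp1, Igtp, Irgm1 and Irgm2), taken by symbol from the 41730 rows of the deposited count table. Of the 10, 9 passed the filter on low counts, and Igtp, with at most 1 count in any library, did not. The list of family genes used here held 17 others that were in the table.

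All sequenced cells were CD8+ T cells from the OT-I line, whose transgenic receptor recognises the peptide SIINFEKL of ovalbumin, and were sorted by flow cytometry. Their culture partners were dendritic cells grown from bone marrow, loaded with that peptide and lacking LXR (labelled LXR-/-), so this deletion was common to both groups. The labels give OT-I as the genotype of the sequenced cells and name the deletion only for the dendritic cells. The control group received the solvent DMSO (4 libraries) and the other group 2 uM RGX-104, a synthetic LXR agonist (4 libraries). The labels give no age, sex, culture time or animal for any library, and p-values therefore cover only the spread among these samples, which may be technical. Control libraries carry the number of their label. The number of an RGX-104 library is that of its column, since the labels do not tie its column to a sample.

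GBPs are large GTPases and IRGs smaller ones, and the genes of both families are best known as targets of interferon gamma. That cytokine acts through its receptor and the kinases JAK1 and JAK2. Among the factors it induces is IRF1, which binds response elements in the promoters of many of its targets. In infected cells GBP and IRG proteins gather on vacuoles that hold a parasite or bacterium, where GBPs also help to release microbial ligands for inflammasomes. Irgm1, Irgm2 and Igtp belong to the regulatory IRGs, which keep effector IRGs such as Iigp1 inactive on the membranes of the cell itself.

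The promoter sequences of the members are shown because all of the members tested moved in the same direction in these data. Of the 10 members, 7 matched the RefSeq promoter table of GRCm38.p6, which gives 250 bases before and 50 after each gene's start. Gbp4, Gbp9 and Iigp1 did not match. The stretches below end at the base before the outermost annotated start of the gene and run 5′ to 3′ on the gene's strand. Capitals mark matches to the core of the interferon-stimulated response element (GAAA, any 2 bases, GAAA, or TTTC, any 2 bases, TTTC on the other strand) and to TTCNNNGAA, the core of a gamma-activated sequence, which reads the same on both strands.
Gbp2 (chr3:142620543-142620662, plus strand): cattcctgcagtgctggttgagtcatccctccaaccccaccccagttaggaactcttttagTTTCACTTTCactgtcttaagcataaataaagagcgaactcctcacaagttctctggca
Gbp3 (chr3:142559924-142560015, plus strand): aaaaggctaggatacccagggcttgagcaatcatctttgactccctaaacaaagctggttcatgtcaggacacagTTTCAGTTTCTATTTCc
Gbp5 (chr3:142496684-142496933, plus strand): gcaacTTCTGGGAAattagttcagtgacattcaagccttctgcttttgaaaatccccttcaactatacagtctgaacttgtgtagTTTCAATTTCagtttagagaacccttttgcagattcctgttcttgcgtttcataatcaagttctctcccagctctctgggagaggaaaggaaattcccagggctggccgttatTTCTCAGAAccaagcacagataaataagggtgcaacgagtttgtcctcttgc
Gbp7 (chr3:142530216-142530335, plus strand): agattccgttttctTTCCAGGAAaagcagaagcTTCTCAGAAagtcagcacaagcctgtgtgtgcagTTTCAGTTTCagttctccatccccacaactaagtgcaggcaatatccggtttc
Irgm1 (chr11:48871421-48871540, minus strand): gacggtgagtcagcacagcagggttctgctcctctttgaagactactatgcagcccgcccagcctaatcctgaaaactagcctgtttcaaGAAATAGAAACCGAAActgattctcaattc
Irgm2 (chr11:58214857-58214976, plus strand): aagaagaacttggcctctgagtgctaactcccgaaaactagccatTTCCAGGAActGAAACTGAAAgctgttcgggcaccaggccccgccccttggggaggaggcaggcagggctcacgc
Igtp (chr11:58199436-58199555, plus strand): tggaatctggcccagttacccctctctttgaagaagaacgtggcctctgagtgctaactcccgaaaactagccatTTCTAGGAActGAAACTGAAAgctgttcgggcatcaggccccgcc

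The response element core on either strand was present in at least 1 window of 300 bases of each of the 7 matched members, and 3.44% of the 32851 windows of that length in the table hold it. Gbp3 has a second window, further downstream, with 0 matches, so the count of 7 is by gene and the percent is by window. TTCNNNGAA was present in 4 of the 7 (Gbp5, Gbp7, Igtp and Irgm2), and in 8.30% of all windows. Of the 10 other listed GBP and IRG genes in the promoter table, 6 held the response element core and 4 held TTCNNNGAA. In Gbp3 and in Irgm1 there were 2 matches to the response element core that overlapped each other. In Irgm2 and Igtp TTCNNNGAA began 11 bases before the response element core. The same arrangement, with TTCNNNGAA, any 2 bases and then the response element core, was searched for on both strands after that spacing was seen and occurred in 5 of the 32851 windows. All 5 belonged to IRG genes, namely Irgm2, Igtp, Tgtp1, Tgtp2 and Gm12185. In their own rows Tgtp1 and Gm12185 also had enough counts to be tested. Tgtp2 had at most 1 count in its own row, and its copies on alternate scaffolds are described below. The stretches of Tgtp1 and Gm12185 are shown to compare the arrangement, and the bases around it are also similar between them.
Tgtp1 (chr11:48992247-48992366, minus strand): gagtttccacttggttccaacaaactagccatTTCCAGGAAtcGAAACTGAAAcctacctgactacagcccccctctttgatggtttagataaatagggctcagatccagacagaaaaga
Gm12185 (chr11:48927183-48927302, minus strand): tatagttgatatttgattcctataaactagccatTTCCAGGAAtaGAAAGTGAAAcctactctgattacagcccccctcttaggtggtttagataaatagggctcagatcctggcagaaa
These genes are paralogs, so the 5 promoters are not independent examples. A match describes the letters in the window and not binding of a factor.

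Library totals ranged from 30642316 to 37714355 counts. Levels are given as CPM, read counts divided by library size and scaled between libraries by the trimmed mean of M values. Differences were tested with the quasi-likelihood F-test of edgeR over 13290 genes, with Benjamini-Hochberg adjustment over all of them and a threshold of 0.05. Among all tested genes, 4.13% were called lower with RGX-104 and 4.82% higher, and the median log2 fold change was 7.16e-04. Within a group, the chi-square of counts per degree of freedom was 1.36 between RGX-104 libraries 2 and 3 and 2.33 to 6.77 for the other pairs, so no pair agreed within counting noise and none was merged. Of 9 tested T cell markers 4 were lower and 1 higher, and the summed markers were at 2810 to 2926 CPM in control and 2684 to 2735 CPM in RGX-104 libraries. Cd3e, Cd8a and Cd8b1 were at 325, 877 and 466 CPM in control libraries and at 295, 809 and 428 CPM with RGX-104, and each fell (edgeR adjusted p = 0.00295, 0.00273 and 0.00264). Cd247 also fell (adjusted p = 4.34e-05), and Lck rose from 87.8 to 93.9 CPM (adjusted p = 0.0395). Cd3d, Cd3g, Zap70 and Cd5 did not pass (edgeR adjusted p = 0.879, 0.728, 0.547 and 0.0592).

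All 9 tested members fell with RGX-104, with 0 higher, beside the 4.13% of all tested genes that were called lower. Their log2 fold changes ran from -0.66 (Iigp1) to -0.18 (Gbp9) with a median of -0.47. In each of the 9 the 4 RGX-104 libraries lay below the 4 control libraries, a pattern found in 7.45% of all tested genes. Fewer transcripts per cell and fewer cells expressing a gene cannot be told apart in these bulk samples.

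**Figure D1:**
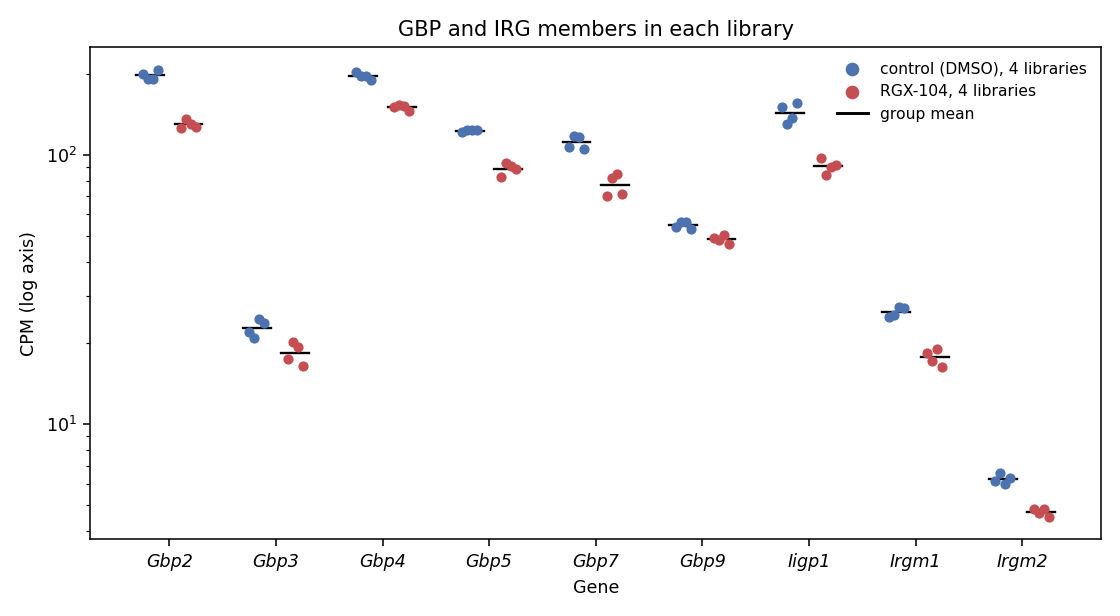
Level of each tested member in each library, in CPM on a log axis, with 4 control and 4 RGX-104 libraries as points and the group mean as a bar. The RGX-104 points lie below the control points for all 9 genes, with group means furthest apart in log2 terms for Iigp1 and Gbp2 and closest for Gbp9.

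Among the GBPs of chromosome 3, Gbp2 encodes a GBP that associates with membranes through a lipid anchor and is among the most studied in mouse infection. It was at 199.9, 191, 191 and 207 CPM in control libraries 1 to 4 and at 125, 135, 130.4 and 127 CPM in RGX-104 libraries 1 to 4. The lowest control library stood well above the highest RGX-104 library. The log2 fold change was -0.60 ± 0.03 (SE; edgeR adjusted p = 2.59e-13), and the level fell by 34.2%. The gene spans 142620663 to 142638008 of chromosome 3 (GRCm38) and overlaps the microRNA gene Mir6381.

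Gbp5, which encodes another lipid-anchored GBP and is known for its part in inflammasome responses, was at 121, 123, 123 and 123 CPM in the controls. With RGX-104 it was at 82.7, 93.1, 90.5 and 88.7 CPM. The control values nearly coincided and the RGX-104 values spread more widely, a difference in spread that was not tested. The groups did not overlap. The log2 fold change was -0.47 ± 0.03 (SE; edgeR adjusted p = 8.45e-11).

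Gbp7 was at 107, 118, 117 and 105 CPM in control libraries and at 70.1, 82.2, 84.5 and 71.3 CPM with RGX-104. In both groups the libraries formed a lower pair (1 and 4) and a higher pair (2 and 3), though the labels do not pair these numbers between groups. The log2 fold change was -0.53 ± 0.07 (SE; edgeR adjusted p = 0.00185). Gbp3, a GBP of lower level, was at 21.9, 20.9, 24.6 and 23.8 CPM and then at 17.5, 20.2, 19.4 and 16.4 CPM. Its groups came closest to touching, with 20.9 CPM in control library 2 against 20.2 CPM in RGX-104 library 2. The log2 fold change of Gbp3 was -0.31 ± 0.06 (SE; edgeR adjusted p = 0.00273).

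The members on chromosome 5 were Gbp4 and Gbp9. Gbp4, between 105115767 and 105139586, was at 203, 195, 196 and 190.1 CPM in control libraries and at 151, 153, 151 and 145 CPM with RGX-104. All RGX-104 libraries of Gbp4 lay within a narrow band. Its log2 fold change was -0.39 ± 0.03 (SE; edgeR adjusted p = 3.52e-10). Gbp9 was at 54.1, 56.5, 56.1 and 53.2 CPM and then at 49.1, 48.4, 50.2 and 46.7 CPM. The fall of Gbp9 was the smallest of the 9, with a log2 fold change of -0.18 ± 0.04 (SE; edgeR adjusted p = 0.00158).

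Among the IRGs, Iigp1 encodes an effector IRG, also known as Irga6, that accumulates on parasite vacuoles. It was at 150.1, 130.0, 137 and 155 CPM in control libraries and at 97.6, 84.1, 90.4 and 91.3 CPM with RGX-104. Control libraries of Iigp1 differed among themselves more than those of the chromosome 3 GBP genes Gbp2 and Gbp5 did, yet none came near the RGX-104 values. Its log2 fold change of -0.66 ± 0.06 was the largest in size of the 9 (SE; edgeR adjusted p = 1.74e-04). Iigp1 lies on chromosome 18 from 60373616 to 60392634.

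Irgm1, a regulatory IRG, was at 24.9, 25.4, 27.2 and 26.9 CPM in controls and at 18.4, 17.1, 19.0 and 16.3 CPM with RGX-104, with a log2 fold change of -0.56 ± 0.05 (SE; edgeR adjusted p = 1.05e-08). Irgm2, another regulatory IRG, had the lowest counts of the tested members in its own row. It was at 6.17, 6.57, 6.01 and 6.33 CPM and then at 4.86, 4.70, 4.86 and 4.52 CPM, with 144 to 235 counts per library. The groups did not overlap for either gene. The log2 fold change of Irgm2 was -0.41 ± 0.08 (SE; edgeR adjusted p = 0.00184).

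Igtp, the third regulatory IRG and also known as Irgm3, had 1, 1, 1 and 1 counts in control libraries and 1, 1, 0 and 0 with RGX-104, and gets no fold. Its level was not assessed, because Igtp is 1 of the genes with a second row in the table, which holds a copy on an alternate scaffold and had 0 counts. Its neighbours Gm12250 and Mrpl22, which have such copies too, had 0 counts in all libraries, and Gemin5 had 2 to 7. Mrpl22 encodes a mitochondrial ribosomal protein that most cells make. Irgm2 has 1 scaffold copy (at most 1 count) and Irgm1 has 3 (at most 8 counts), so their levels may be understated as well. With the rows of copies summed into their genes, the log2 fold changes were -0.56 for Irgm1 and -0.41 for Irgm2. The 6 GBP members and Iigp1 have no such copy.

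Summed over the members, GBP transcripts were at 703 to 707 CPM in control libraries and at 495 to 532 CPM with RGX-104. This sum does not change when reads are assigned to the wrong member. The means were 705 ± 2.17 and 512 ± 19.8 CPM (SD, n = 4 each), a ratio of 0.727. IRG members summed to 176 ± 11.7 and 113 ± 6.12 CPM (SD, n = 4 each), a ratio of 0.645, with 162 to 189 CPM in controls against 106 to 121 CPM. Most of the IRG sum was Iigp1, at means of 143 CPM in controls and 90.8 CPM with RGX-104. Igtp added almost nothing to it, so the IRG ratio mainly describes Iigp1. The spread of the GBP sum was wider with RGX-104 than in controls and that of the IRG sum was not. With 4 libraries a group these spreads are a description, and a difference in spread was not tested. Libraries 2 and 3 had the highest GBP sums of the RGX-104 group (532 and 526 CPM), and libraries 1 and 4 the lowest (both 495 CPM).

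The members did not fall by the same proportion. The ratio of each member to Gbp2 within a library, which does not depend on library scaling, was compared between groups for 8 members. All 8 ratios share Gbp2, which fell by more than any other tested member but Iigp1. The ratios are therefore not independent, and an upward direction was likely from the choice of Gbp2. It was higher with RGX-104 for Gbp9 by 0.43, Gbp3 by 0.29, Gbp4 by 0.22, Irgm2 by 0.20 and Gbp5 by 0.14 on the log2 scale. Each of these 5 had a two-sided exact permutation p of 0.0286, the smallest that 4 against 4 libraries can give, and 0.0457 after Benjamini-Hochberg adjustment over the 8 ratios. For Gbp9 the ratio was -1.96 to -1.76 in controls and -1.48 to -1.35 with RGX-104 (log2). The ratios of Gbp7, Irgm1 and Iigp1 changed by 0.07, 0.04 and -0.05, their groups overlapped, and they did not pass (exact permutation p = 0.486, 0.629 and 0.543, adjusted 0.620, 0.629 and 0.620). All 5 calls were lost when control library 1, 2 or 4 or any 1 of the 4 RGX-104 libraries was left out (adjusted exact p up to 0.0914), and held without control library 3. Each adjusted p depends on how many of the 8 ratios reach the smallest p, so a call can be lost without a change in its own ratio. The differences of the 5 members themselves kept their direction, with 0.39 to 0.46 for Gbp9.

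**Figure D2:**
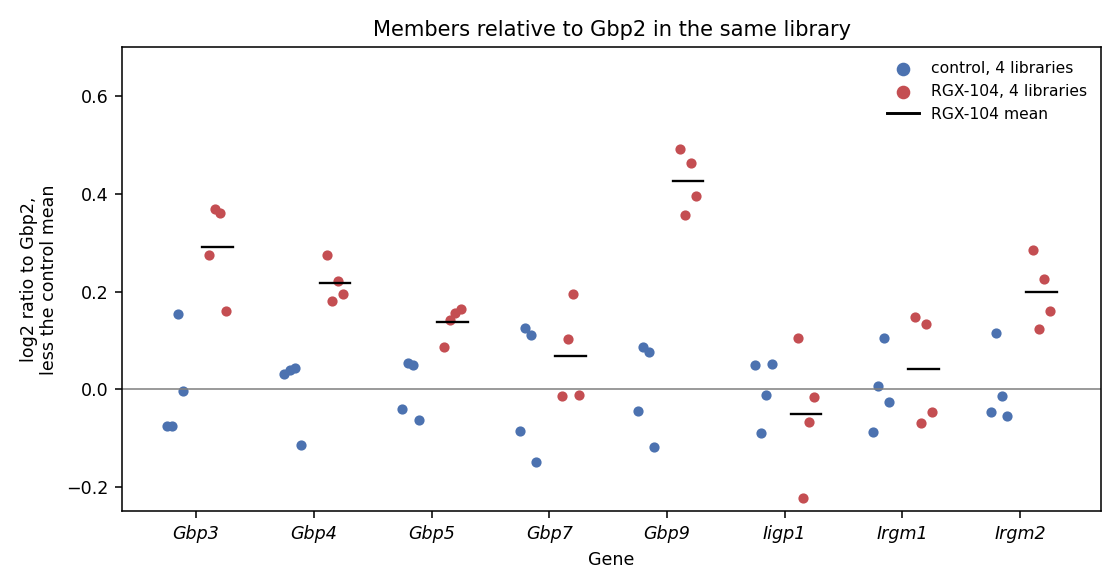
Log2 ratio of each member to Gbp2 in the same library, less the control mean of that ratio, for 4 control and 4 RGX-104 libraries as points with the RGX-104 mean as a bar. The RGX-104 points of Gbp9 lie furthest above the control points, with a mean of 0.43, and those of Gbp7, Iigp1 and Irgm1 overlap them.

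Levels of different genes were compared per kilobase of merged exons of the GENCODE M21 annotation. Gbp2 had the highest control level, at 78.3 ± 3.09 CPM per kilobase (SD, n = 4). Gbp4 (26.2) and Iigp1 (24.6) followed, and their ranges over control libraries overlapped (25.4 to 27.1 and 22.3 to 26.7 CPM per kilobase). Gbp7 (19.9), Gbp5 (18.5), Gbp9 (10.6), Gbp3 (6.99), Irgm1 (4.50) and Irgm2 (1.70) came next, in that order and with separate ranges. With RGX-104, Gbp2 remained highest at 51.5 ± 1.79 CPM per kilobase, and Gbp4 was at 20.0. Iigp1 was at 15.6, and its range of 14.5 to 16.8 CPM per kilobase then lay below that of Gbp4 (19.4 to 20.4) and overlapped that of Gbp7 (12.5 to 15.1). These levels depend on the transcripts annotated for each gene. Those of Irgm1 and Irgm2, which have scaffold copies, may also be understated, so their low places in the order are uncertain.

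Exact sequence shared with other genes was counted in GENCODE M21 transcripts, as the share of a gene's words of 50 and of 100 bases that also occur in another gene. For words of 100 bases it was 0 for Gbp2, Iigp1 and Irgm1, 0.142% for Gbp5, 0.694% for Gbp3, 1.64% for Gbp4 and 1.65% for Gbp9. Irgm2 shared 3.01% of its words with Igtp, and Gbp7 shared 9.59% with the transcript model Gm43802. For words of 50 bases the largest share among tested members was 12.7%, in Gbp7. Outside the members the overlap was far larger, with 73.5% of the 100-base words of Gbp10, 73.1% of those of Tgtp1 and 64.5% of those of Gbp6 found in another gene, so the counts of these genes are uncertain. The length of the reads is not given in the sources used here.

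The other genes of the families moved in the same direction where they were called. Of the 17 other listed GBP and IRG genes in the table, 11 were tested, 5 were lower and 0 higher, with a median log2 fold change of -0.45. Gm4951 (-0.84 ± 0.23), Gm12185 (-0.69 ± 0.10), Gbp10 (-0.67 ± 0.05), Tgtp1 (-0.60 ± 0.04) and Gbp6 (-0.43 ± 0.03) fell (log2, SE; edgeR adjusted p = 0.0211, 4.35e-05, 1.81e-09, 4.60e-11 and 5.89e-10). Gm4951 rested on 12 to 31 counts per library. Tgtp1, an effector IRG also known as Irgb6, averaged 42.7 CPM in controls and 28.1 CPM with RGX-104. Gbp8 was at 33.4 and 32.3 CPM with overlapping groups (edgeR adjusted p = 0.662). Irgq, an IRG-like gene not known as an interferon target, was at 21.2 and 21.4 CPM (adjusted p = 0.931). Gbp11, Irgc1, F830016B08Rik and 9930111J21Rik1 did not pass either, at no more than 45 counts per library. RefSeq annotates Gbp11 as a transcribed pseudogene. Tgtp2 had at most 1 count in its own row and up to 218 in a scaffold copy. With copies summed, Tgtp2 fell by 0.66 ± 0.10 and Ifi47, on 2 to 14 counts, was at -0.39 ± 0.41 (log2, SE; edgeR adjusted p = 3.66e-05 and 0.623). Gm12185 and Gm4951 also have scaffold copies, with at most 1 count.

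**Figure D3:**
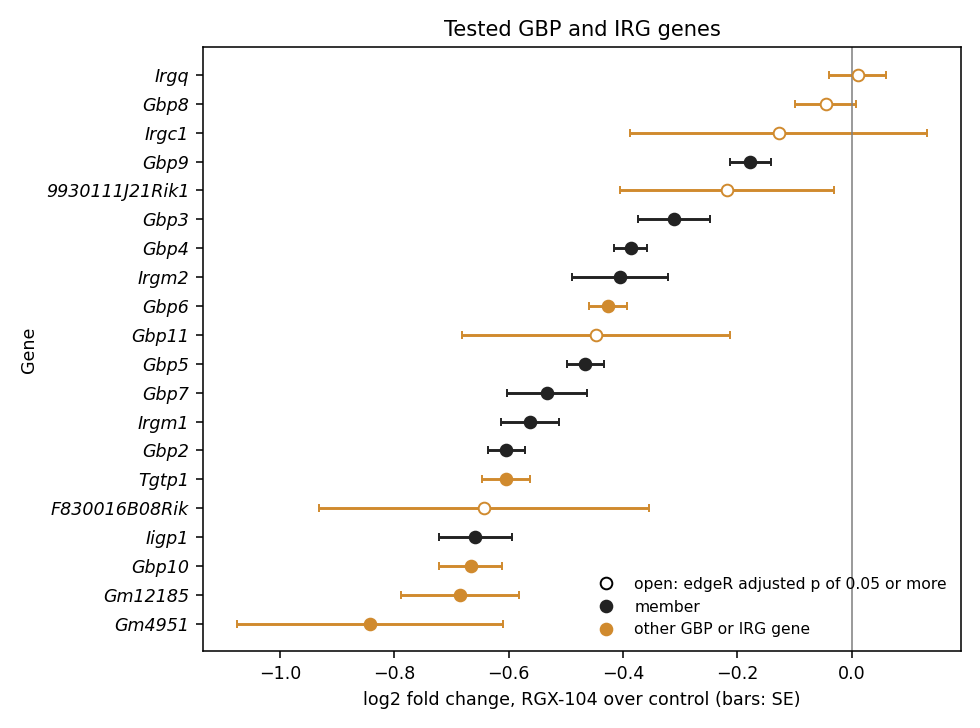
Log2 fold change of RGX-104 over control for the 20 tested genes of the family list, with bars of 1 SE, members in black and other family genes in orange, and open points where the edgeR adjusted p was 0.05 or more. Values run from -0.84 for Gm4951 to 0.01 for Irgq, and the 9 members lie between -0.66 and -0.18.

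Most family genes lie in 5 clusters, on chromosomes 3, 5, 11 (a pair of clusters) and 18, and the genes around them serve as neighbours of the same regions. Of 32 protein-coding genes outside the family list that lie inside the clusters or among the 3 nearest on each side, 19 were tested. Of these 19, edgeR called 0 and DESeq2 0, limma-voom called 1 (Zfp672), and 7 had an unadjusted edgeR p under 0.05. Their median log2 fold change was 0.05. On chromosome 3, Gbp2, Gbp3, Gbp5 and Gbp7 were lower, whereas the flanking genes Pdlim5 (0.05 ± 0.04), Kyat3 (0.10 ± 0.05), Gtf2b (-0.07 ± 0.04) and Pkn2 (0.01 ± 0.03) did not pass. On chromosome 5 the log2 fold changes of Gbp8, Gbp9, Gbp4, Gbp10, Gbp6 and Gbp11 were -0.05, -0.18, -0.39, -0.67, -0.43 and -0.45 in chromosomal order. Among these Gbp8 and Gbp11 did not pass. In the chromosome 18 cluster Gm4841 was at -0.42 ± 0.19 on 22 to 49 counts per library and did not pass. Gm4841 lies between the IRG genes Gm4951 and F830016B08Rik. It is counted among the 19 because it was not in the family list, and whether it is itself an IRG gene was not checked.

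**Figure D4:**
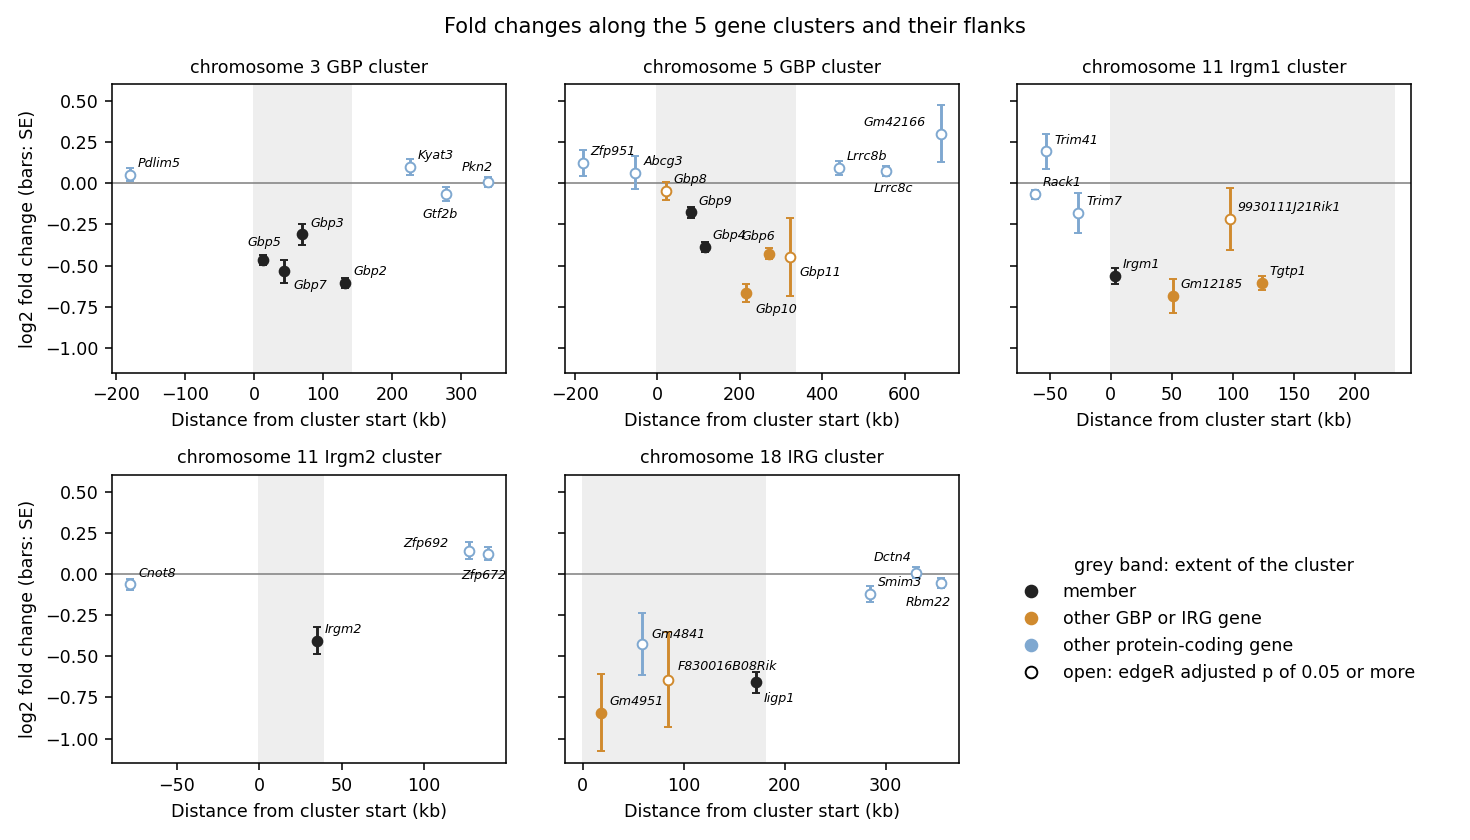
Log2 fold change (bars, 1 SE) against distance in kilobases from the start of each of the 5 clusters, whose extent is the grey band. Members are in black, other listed family genes in orange and protein-coding genes outside that list, Gm4841 among them, in blue. Filled points, which passed the edgeR threshold, are all family genes inside the bands and all lie below 0.

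Other large GTPases were compared with the GBP and IRG genes. Of 5 tested genes of the interferon-inducible Mx and very large GTPase families 3 were lower and 0 higher, with a median of -0.20. RefSeq annotates Mx1 and Mx2 as transcribed pseudogenes and Gm8995 as a miscellaneous RNA, so not all of the 5 are annotated as protein-coding. Gm4070 (-0.43 ± 0.13), Gvin1 (-0.36 ± 0.09) and Gm8995 (-0.20 ± 0.04) fell (log2, SE; edgeR adjusted p = 0.0366, 0.00744 and 9.47e-04). Sequence shared between these 3 was not counted, and reads may be shared between them. Mx1 and Mx2, which are targets of type I interferon, were at 1.84 and 1.30 CPM in controls and at 2.11 and 1.22 CPM with RGX-104 (adjusted p = 0.524 and 0.804). Of 8 tested dynamin, mitofusin and atlastin genes, related GTPases with housekeeping roles in membrane fission and fusion, edgeR, DESeq2 and limma-voom each called 0, with 1 at an unadjusted edgeR p under 0.05. Their log2 fold changes ran from -0.06 to 0.04.

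In the pathway above the GTPases, the gene of the ligand rose and those of its receptor fell. Of 14 tested genes of interferon gamma signalling 1 was higher, the ligand gene Ifng, and 7 were lower. Ifng was at 30.2, 32.7, 33.5 and 38.8 CPM in control libraries and at 89.0, 64.2, 64.0 and 88.3 CPM with RGX-104 (log2 fold change 1.17 ± 0.16, SE; edgeR adjusted p = 0.00632). Among its receptor genes, Ifngr1 fell by 0.42 ± 0.03 and Ifngr2 fell by 0.31 ± 0.07 (log2, SE; edgeR adjusted p = 2.54e-10 and 0.00277). Of the kinases, Jak2 fell by 0.25 ± 0.03 (adjusted p = 1.81e-06) and Jak1 was at 388 and 391 CPM (adjusted p = 0.858). Irf1 fell by 0.34 ± 0.03 from 254 to 199.8 CPM (log2, SE; edgeR adjusted p = 1.81e-09). Irf8 and Irf2, which encode related factors, were also lower. Socs1, an inhibitor that the pathway itself induces, was at 47.2 and 46.7 CPM (adjusted p = 0.923).

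RGX-104 libraries 1 and 4 had the higher Ifng of that group and the lower GBP sums, and libraries 2 and 3 the reverse. In libraries 1 to 4 Ifng was at 263%, 190%, 189% and 261% of the control mean and the GBP sum at 70.2%, 75.5%, 74.6% and 70.3%. Irf1 was at 79.1%, 78.8%, 77.0% and 80.1%. The IRG sum, most of it Iigp1, was ordered otherwise, at 68.8%, 60.3%, 65.0% and 63.8%. Over all genes, RGX-104 libraries 2 and 3 were also the most alike pair (chi-square per degree of freedom 1.36) and 1 and 4 the next (2.33). The split into these pairs is therefore not particular to Ifng and the GBP sum. With 4 libraries these are values side by side, and no relation was tested.

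**Figure D5:**
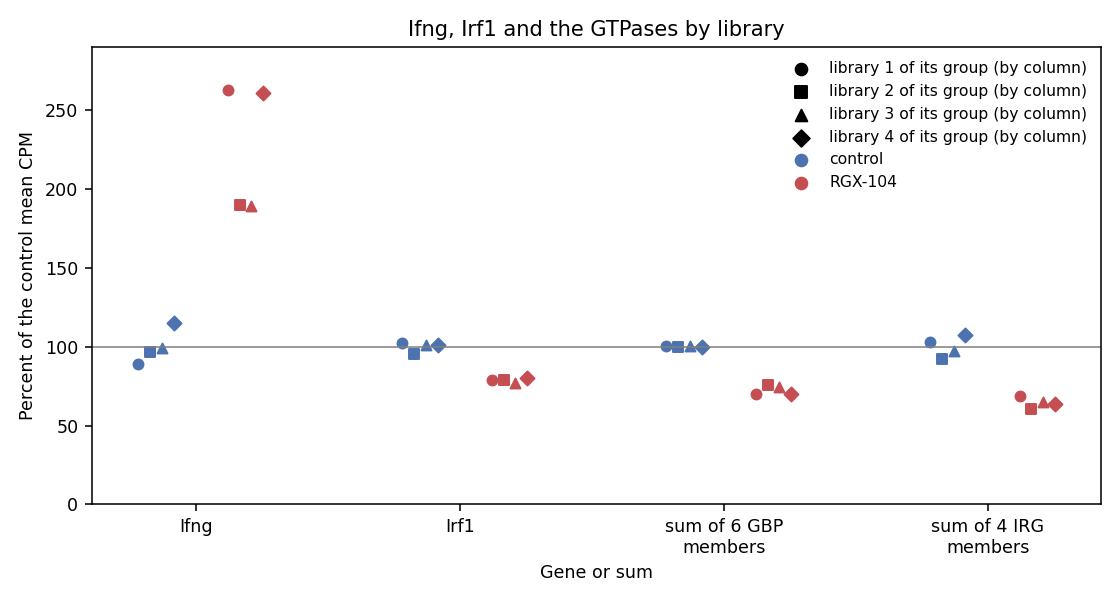
Ifng, Irf1 and the summed GBP and IRG members in each library as a percent of the control mean CPM, with 4 control libraries in blue, 4 RGX-104 libraries in red and the column number as the marker shape. Ifng lies at 189% to 263% of the control mean in RGX-104 libraries, while the other quantities lie at 60.3% to 80.1%.

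Other genes induced by interferon gamma were called in both directions. Of 15 tested, 6 were lower and 2 higher, with a median log2 fold change of -0.10. Cxcl10 (-1.10 ± 0.12), which encodes a chemokine, Serpina3g (-0.92 ± 0.08) and Nos2 (-0.44 ± 0.09) fell (log2, SE; edgeR adjusted p = 1.98e-07, 2.35e-09 and 0.00173), and Cd74 rose by 0.32 ± 0.04 (adjusted p = 6.12e-06). Psmb8, Tap1 and Tap2 had at most 1 count in any library, but each has 3 scaffold copies in the table, so their levels were not assessed. Of 8 tested genes of type I interferon signalling 2 were lower, Usp18 (-0.30 ± 0.06) and Ifnar2 (-0.12 ± 0.04), and 0 higher, with a median of -0.03 (log2, SE; edgeR adjusted p = 0.00171 and 0.0314). The type I interferon genes of the list (Ifna1, Ifna2, Ifna4 and Ifnb1) had 0 counts in every library.

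Genes whose products act with the GTPases were read next. The conjugation machinery of the ATG8 proteins directs IRGs and GBPs to vacuoles, and of its 15 tested genes edgeR called 0 and DESeq2 0, limma-voom called 1 (Atg5), and 4 had an unadjusted edgeR p under 0.05. Their log2 fold changes ran from -0.11 to 0.06. Prenylation enzymes attach the lipid anchor of GBPs such as Gbp2 and Gbp5, and of 11 tested genes 1 was lower and 0 higher. This was Pggt1b, which encodes a subunit of a prenyltransferase (-0.11 ± 0.03, log2, SE; edgeR adjusted p = 0.0264). Of 6 tested inflammasome genes 1 was higher, the DNA sensor gene Aim2 (0.17 ± 0.04; adjusted p = 0.00372), and 0 lower. Their log2 fold changes ran from -0.50 to 0.17, and 3 of the 6 had an unadjusted p under 0.05. Il18, which encodes a cytokine that inflammasomes process, was at -0.50 ± 0.18 on 24 to 49 counts per library, with its groups apart, and did not pass (log2, SE; edgeR adjusted p = 0.0907).

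The genes that followed the members most closely from library to library were sought among the 8679 genes whose mean log2 CPM was 3 or more. Group means were subtracted first, so that the difference between treatments did not enter. The mean of the 9 members had Pearson's r of 0.975 with St3gal4, 0.973 with Parp9, 0.969 with Pstpip1, 0.963 with Hcls1 and 0.961 with Ctsb over the 8 libraries. These are the highest of many and the points share libraries, so they are a description only. Parp9 fell by 0.18 ± 0.03 and Ctsb fell by 0.14 ± 0.03, and Pstpip1 was at -0.09 ± 0.03 (log2, SE; edgeR adjusted p = 7.54e-04, 0.00144 and 0.0489). St3gal4 and Hcls1 did not pass (adjusted p = 0.874 and 0.144). Among the members themselves, r with the mean of the other 8 ran from -0.38 for Iigp1 to 0.72 for Gbp3, so library-to-library deviations were only partly common to the members.

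GBP and IRG genes are also active in dendritic cells and macrophages, and markers of the cells that the sort could hold were read beside the members. Of 18 dendritic cell markers 11 were tested, 2 were higher (Ccl22 and Cd74) and 1 lower (Ccr7, which T cells also express). They summed to 825 to 874 CPM in control and 813 to 833 CPM in RGX-104 libraries, most of it Ccr7. Clec9a and Cd209a had at most 1 count, Ccl17 at most 6, Xcr1 at most 7 and Flt3 at most 17. Other markers of the list were present, with 87 to 133 counts per library for Zbtb46, 187 to 279 for Fscn1, 17 to 34 for Itgax and 9 to 25 for Cd86. Counts were higher for Cd74 (851 to 1142), Batf3 (1119 to 1522), Cst3 (1520 to 1836) and Cd83 (1533 to 1829). Ccl22 rose from 2.05 to 4.83 CPM (log2 fold change 1.24 ± 0.11, SE; edgeR adjusted p = 1.45e-08). The median log2 fold change of the 11 was 0.28, and 6 had an unadjusted edgeR p under 0.05. Zbtb46 was at 0.37 ± 0.12 and Fscn1 at 0.28 ± 0.09 with overlapping groups, and neither passed (log2, SE; edgeR adjusted p = 0.0552 and 0.0669). Of 11 macrophage and myeloid markers 2 were tested and 1 was higher (Ctss). They summed to 30.9 to 35.0 CPM in control and 38.4 to 41.7 CPM in RGX-104 libraries, most of it Ctss. Ctss had 859 to 1269 counts per library (log2 fold change 0.36 ± 0.04, SE; edgeR adjusted p = 1.70e-06) and Cd68 136 to 212. Fcer1g had 7 to 13 counts, and Lyz2, Csf1r, Spi1 and Adgre1 had at most 6 in any library. H2-Aa, H2-Ab1 and H2-Eb1 have scaffold copies and were at 0 counts. The part of these markers' cells in the members' differences was not tested. The neutrophil, B cell and erythroid markers summed to at most 0.198, 5.45 and 0.897 CPM in any library, and of these lists 0, 1 and 1 markers were tested. NK cell markers summed to at most 56.7 CPM, most of it Eomes, which CD8 T cells express, and 2 were tested. Of these B cell, erythroid and NK cell markers edgeR, DESeq2 and limma-voom called 0, and 1 NK cell marker had an unadjusted p under 0.05. Of 4 CD4 T cell markers 2 were tested, 1 was higher and 1 lower, and Cd4 itself had 3 to 14 counts per library.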

How the data were processed

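RNA of 8 libraries was sequenced after Illumina Truseq preparation, per the labels' protocols. Raw read counts were deposited by the authors as 1 table. The submitters' processing notes name cutadapt 2.10, STAR 2.7.5, R 4.1.0, DESeq2 1.4 and the build GRCm38. Not given in the sources used here: how reads were counted, the annotation and the strand setting, so counts of overlapping genes and close paralogs are uncertain.

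The filter filterByExpr kept 13290 of 41730 genes (count of at least 10, total of at least 15). edgeR 4.0.16 in R 4.3.3 was run with TMM scaling, robust quasi-likelihood fitting and treatment as the only term, and SE came from the F statistic. It was tested on simulated data. Log2 CPM used a prior count of 2. Gene positions came from RefSeq, and lengths and shared words from GENCODE M21 (both GRCm38). The members, gene lists, tests and most alternatives (DESeq2 1.42.0, limma-voom 3.58.1, other scalings and filters, leaving out libraries) were chosen with earlier results of these data known. The summing of scaffold copies and scaling without interferon genes were added later. Named genes were all members, up to 4 called genes of each list with the largest changes, 8 fixed genes of interferon gamma signalling (1 of them is not reported here), and the 5 genes most alike. Other genes were named after their values were seen.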

Additional observations from a re-analysis of the deposited data

Results flagged for a closer look

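Gbp5 was at 121 CPM in control library 1 against 123 in each of the other 3 controls, a gap wide for the group's range though small in level. Among 78 groups of 4 libraries checked this was the only value set apart in this way, where chance gives about 3.90.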

How the results depend on the processing

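All 9 tested members were called lower and 0 higher with DESeq2, limma-voom, RLE scaling, library totals, either filter, adjusted p under 0.01, RGX-104 libraries 2 and 3 summed, scaffold copies summed, scaling without interferon genes, and without each library in turn. Against a fold of 1.2, 5 were called lower (Gbp2, Gbp4, Gbp5, Iigp1 and Irgm1). That test asks for a larger change and weighs it against its error. Gbp7 (-0.53 ± 0.07) and Irgm2 (-0.41 ± 0.08) did not pass it (log2, SE; edgeR adjusted p against that fold = 0.0617 and 0.78). Both fell by more than Gbp4 (-0.39 ± 0.03) but with a larger SE. That test called 45 genes lower and 65 higher over the whole table, and adjusted p under 0.01 gave 280 and 344. Without each library, genes called lower ranged from 377 to 621 and higher from 462 to 719, and the count of member ratios to Gbp2 past the threshold from 0 to 5. With column number as a replicate block, 906 genes were lower and 1109 higher, and the 9 members stayed called. The labels do not pair these numbers, deviations of same-numbered libraries correlated at 0.043 to 0.157, and 7 of 8 libraries correlated best with their own number, a hint from the data only. Precision is limited by 4 libraries a group and, for Irgm2, by its 144 to 235 counts.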
